A study of Mus musculus with 2 samples.

Results

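The miR-26 family was examined in resting macrophages through the 5 mature names that its 3 mouse hairpins produce, out of 1915 names in the count table. The members were taken by name. They were the 5p arms mmu-miR-26a-5p and mmu-miR-26b-5p and the 3p arms mmu-miR-26a-1-3p, mmu-miR-26a-2-3p and mmu-miR-26b-3p, and all 5 were counted in both libraries. The data came from small RNA sequencing of unstimulated bone marrow-derived macrophages (BMDMs), which are macrophages grown in culture from marrow progenitors. The donors were C57/BL6 mice, wild type and 8 weeks old. The single group held 2 libraries, labelled as biological replicates 1 and 2, with 7322969 and 8094314 miRNA counts. The labels do not say whether they came from separate animals, so the SD describes the spread between these cultures. There was no treated group, and the comparisons made here are between members, between arms and between the libraries.

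The cell type label was compared with marker miRNAs. The 4 hematopoietic and myeloid names, miR-142a-5p, miR-142a-3p, miR-223-3p and miR-223-5p, were all present and held 4.96% of the counts in replicate 1 and 3.78% in replicate 2, with miR-142a-5p the most abundant (271173 and 236776 counts). The liver marker miR-122-5p, the muscle markers miR-1a-3p and miR-206-3p and the neuronal marker miR-124-3p had 0 counts in both libraries, which allows up to 3 counts in each. The 3 muscle markers together held 0 and 6 counts and the 2 neuronal markers 12 and 11, from miR-133a-3p and miR-9-5p. The 4 stromal markers together held 1700 and 1237 counts, led by miR-143-3p (1370 and 949). The 5 epithelial markers held 1115 and 1338, led by miR-200b-3p (496 and 827), and the 2 endothelial markers 458 and 374, led by miR-126a-5p (355 and 286). The lymphocyte marker miR-150-5p had 202 and 88 counts, and the 2 erythroid markers held 9 and 8, led by miR-451a (7 and 8). Each of these other lists was far below the hematopoietic and myeloid list in both libraries. Their part in the counts of the miR-26 family was not tested.

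A miRNA hairpin is cut into a short duplex with a 5p and a 3p strand. Usually the strand loaded into an Argonaute protein (the guide) is stable and the other (the passenger) is degraded, so the passenger is rare in sequencing data. Bases 2 to 8 of the guide form the seed, which pairs with target mRNAs. miR-26 is a broadly expressed family whose guide is the 5p strand. It is known for repressing the histone methyltransferase gene Ezh2 and for acting with its host genes, which encode small phosphatases of the RNA polymerase II C-terminal domain, to restrain entry into the cell cycle.

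The mature sequences are shown because they decide which reads can be told apart. They were taken from RefSeq (GRCm38.p6), where all 5 names matched, and the seed is in capitals.

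miR-26a-5p: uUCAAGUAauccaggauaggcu

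miR-26b-5p: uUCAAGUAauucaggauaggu

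miR-26a-1-3p: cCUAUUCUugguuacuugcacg

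miR-26a-2-3p: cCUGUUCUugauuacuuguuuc

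miR-26b-3p: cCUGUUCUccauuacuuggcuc

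Both 5p strands carry the seed UCAAGUA. Counted from the 5′ end, the 22-base miR-26a-5p and the 21-base miR-26b-5p differ at 2 of the 21 positions they share, C11U and C21U, so a read must be judged on a base in its middle or at its end to be assigned to miR-26a or miR-26b. The 3p strands are more distinct. miR-26a-1-3p differs from miR-26a-2-3p at 6 positions (A4G, G11A, C19U, A20U, C21U and G22C) and from miR-26b-3p at 8. The first of these substitutions lies in the seed, so miR-26a-1-3p carries CUAUUCU while miR-26a-2-3p and miR-26b-3p share CUGUUCU. Outside the family that 3p seed occurs in miR-7039-3p and miR-6932-3p, which had 0 counts in both libraries, and the 5p seed occurs in no other matched name.

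The hairpins, from the plus strand of GRCm38.p6, are given with both mature strands in capitals, because they show why a 5p read of miR-26a has no locus.

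Mir26a-1, chr9:119031796-119031885: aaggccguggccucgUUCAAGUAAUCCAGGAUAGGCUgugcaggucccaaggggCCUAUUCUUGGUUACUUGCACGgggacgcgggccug

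Mir26a-2, chr10:126995530-126995613: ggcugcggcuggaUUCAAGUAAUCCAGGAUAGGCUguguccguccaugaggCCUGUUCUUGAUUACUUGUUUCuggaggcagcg

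Mir26b, chr1:74394310-74394394: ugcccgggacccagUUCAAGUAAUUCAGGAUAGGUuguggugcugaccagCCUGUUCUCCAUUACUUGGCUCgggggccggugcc

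Mir26a-1 and Mir26a-2 share an unbroken run of 25 bases that contains the whole 22-base miR-26a-5p, whereas the longest run that either shares with Mir26b is 11 bases (Mir26a-1) or 10 bases (Mir26a-2). Reads of miR-26a-5p therefore match both loci equally, and only the 3p names separate them.

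Each hairpin lay inside an intron of a different small phosphatase gene, on the strand of that gene. In the GENCODE annotation of GRCm38, Mir26b (ENSMUSG00000065468.1) falls in the intron between exons 4 and 5 of Ctdsp1, Mir26a-2 (ENSMUSG00000065430.1) in that between exons 5 and 6 of Ctdsp2, and Mir26a-1 (ENSMUSG00000065513.1) in that between exons 5 and 6 of Ctdspl, all counted on the principal transcript. The positions correspond between the paralogs. In all 3 genes the exon before the intron has 57 bases and the exon after it has 93 bases, while the introns themselves measure 564 bases in Ctdsp1, 1946 in Ctdsp2 and 3283 in Ctdspl. The hairpins end 245, 241 and 1650 bases before the next exon, respectively. No exon of a host overlapped Mir26b or Mir26a-1. For Mir26a-2, a pair of shorter Ctdsp2 transcripts is annotated to begin at position 126995613, the last base of the hairpin.

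The 5p strands made up nearly all counts of the family, and miR-26a-5p was the leading member in both libraries. Levels are given as CPM, the count scaled to a library total of 1000000 miRNA counts. miR-26a-5p had 99844 counts in replicate 1 and 124244 in replicate 2, that is 13634 and 15350 CPM. miR-26b-5p had 26096 and 30123 counts, or 3564 and 3722 CPM. The lower value of miR-26a-5p was well above the higher value of miR-26b-5p. The mean shares of the library were 1.45% ± 0.121 (SD, n = 2) for miR-26a-5p, which ranked 13 of all names, and 0.364% ± 0.0112 (SD, n = 2) for miR-26b-5p, which ranked 34. As these are bulk libraries, fewer expressing cells and less miRNA per cell cannot be told apart. All 5 names together held 1.82% ± 0.130 (SD, n = 2) of the counts.

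**Figure D1:**
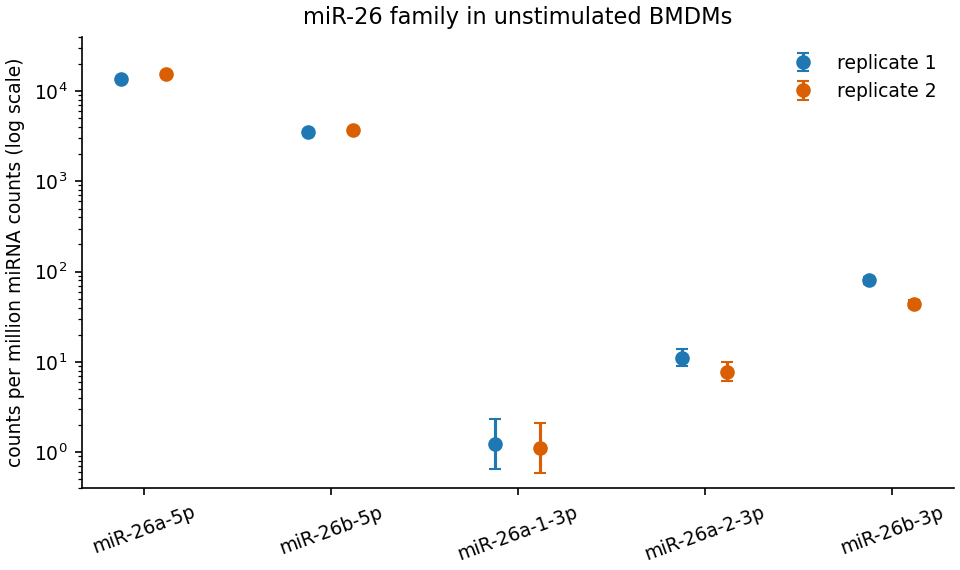
CPM (log scale) of the 5 members in replicates 1 and 2, with 95% Wilson intervals of the count as bars, which cover counting error only and are narrower than the points for the abundant members. The 5p strands lie above 3500 CPM and the 3p strands below 80 CPM in both libraries, and miR-26a-1-3p is the lowest at 1.23 and 1.11 CPM.

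Among the guides, miR-26a-5p was the major isoform at about 4 in 5 of the 5p counts. The intervals here describe counting error alone, since copies made by PCR were counted without molecular identifiers. miR-26a-5p held 79.3% of the 5p counts in replicate 1 (exact 95% interval 79.1 to 79.5) and 80.5% in replicate 2 (80.3 to 80.7), a mean of 79.9% ± 0.854 (SD, n = 2). The remaining 20.1% belonged to miR-26b-5p. The excess of miR-26a-5p over miR-26b-5p was 3.83-fold and 4.12-fold, and within each library the exact two-sided binomial test gave a p too small for the computation to represent. Since miR-26a-5p comes from 2 loci and miR-26b-5p from 1, the comparison is between names and not between loci. How the authors counted a read that matches both miR-26a hairpins is not given in the sources used here. Where different names share 1 mature sequence, the table holds equal or nearly equal counts, as for let-7a-1-3p and let-7c-2-3p (1378 and 1092 under each name) and for miR-199a-3p (280 and 262) and miR-199b-3p (278 and 261). These counts do not separate reads counted in full under each name from reads divided evenly, and they do not show how a single name with 2 hairpins was counted. If each such read had been counted at both hairpins, the share of miR-26a-5p would be 65.7% and 67.3%, which still exceeds that of miR-26b-5p. Its CPM, its rank and the library share of the family would then be lower as well.

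The 3p strands showed the opposite order: miR-26b-3p, from the less abundant guide, was the major one. It had 584 counts in replicate 1 and 353 in replicate 2, or 79.7 and 43.6 CPM. miR-26a-2-3p had 81 and 63 counts, or 11.1 and 7.78 CPM. miR-26a-1-3p had 9 counts in each library, or 1.23 and 1.11 CPM. These ranges did not overlap. miR-26b-3p thus held 86.6% of the 3p counts in replicate 1 (exact 95% interval 83.8 to 89.1) and 83.1% in replicate 2 (79.1 to 86.5), although its hairpin gave 20.7% and 19.5% of the 5p counts. It exceeded miR-26a-2-3p 7.21-fold and 5.60-fold, and miR-26a-1-3p 64.9-fold and 39.2-fold. The 8 exact binomial tests of pairs of members within a library all had an adjusted p-value of 4.18e-11 or less after Benjamini-Hochberg correction, which covers counting error within a library and not the spread between cultures.

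**Figure D2:**
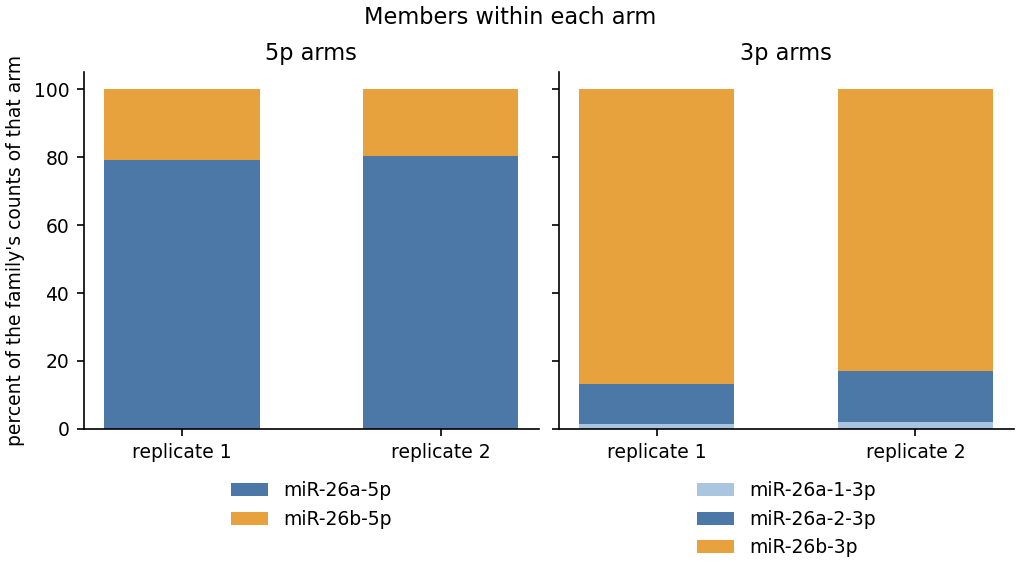
Percent of the family's 5p counts (left) and 3p counts (right) that belong to each member, in replicates 1 and 2. miR-26a-5p fills 79.3% and 80.5% of the 5p bars, whereas miR-26b-3p fills 86.6% and 83.1% of the 3p bars.

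Arm use therefore differed between the miR-26a and miR-26b hairpins. For miR-26a, with both 3p names summed, the 5p strand made up 99.91% of the counts of both arms in replicate 1 and 99.94% in replicate 2. For miR-26b it made up 97.8% and 98.8%. Both hairpin names favored the 5p strand, but by different margins. There were 0.901 and 0.580 counts of a 3p strand for every 1000 counts of miR-26a-5p, against 22.4 and 11.7 for every 1000 counts of miR-26b-5p. The ratio was thus 24.8-fold higher for miR-26b in replicate 1 (exact 95% interval 19.8 to 31.4) and 20.2-fold higher in replicate 2 (15.6 to 26.4), with Fisher's exact test giving an adjusted p-value of 6.13e-293 and 1.15e-174. With the count of miR-26a-5p halved, as for reads counted at both hairpins, the excess would be 12.4-fold and 10.1-fold.

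These margins were set beside all hairpin names with both arms listed and at least 100 counts over both arms and libraries. Of the 199 such names, 112 had 5p as the major arm, and the median share of the major arm was 97.3%. miR-26a, at a mean of 99.93%, was more one-sided than 90.5% of them. Of the 18 names with a higher share, 10 had 0 counts of the minor arm in both libraries, which allows up to 3 counts in each. miR-26b, at a mean of 98.3%, was close to the middle, with a higher share than 57.3% of them. The first base also differed between the arms: both guides of the family begin with U and all 3 passengers begin with C. Over the 131 of these hairpins with sequences for both arms, U was the first base of 51.1% of major arms and of 17.6% of minor arms, and C of 20.6% and 32.8%.

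**Figure D3:**
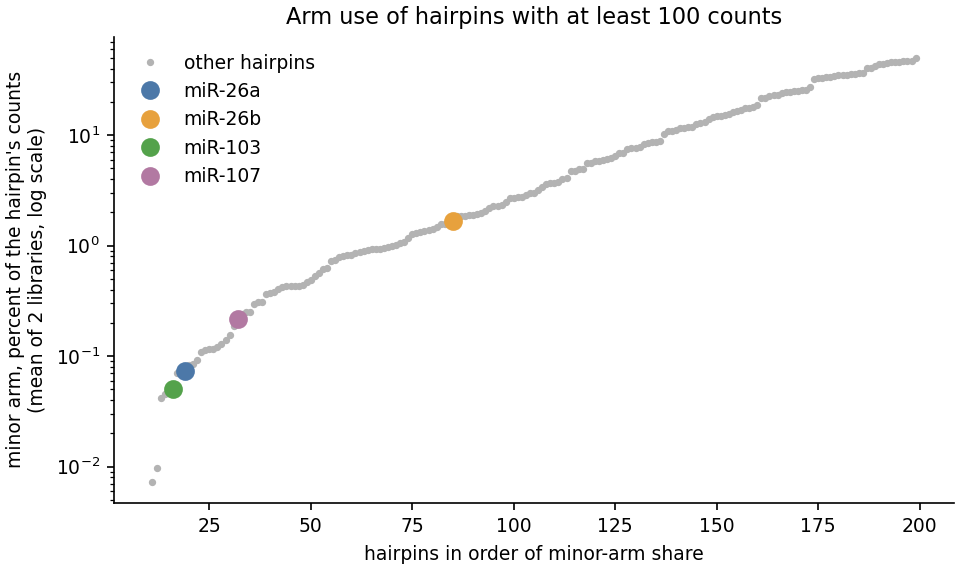
Share of the minor arm in the counts of each hairpin name (log scale, mean of 2 libraries), in increasing order, for names with at least 100 counts. The 10 names with a minor arm at 0 take the first places and are not drawn. miR-26a lies near the low end at place 19, with a share of 0.0740%, after miR-103 at place 16, and miR-26b at 1.67% lies near the middle.

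The 3p strands of miR-26a pointed mainly to the Ctdsp2 intron. miR-26a-2-3p, from Mir26a-2, made up 81 of 90 locus-specific counts in replicate 1, or 90% (exact 95% interval 81.9 to 95.3), and 63 of 72 in replicate 2, or 87.5% (77.6 to 94.1). The mean was 88.8% ± 1.77 (SD, n = 2), and miR-26a-1-3p from the Ctdspl intron made up the rest. Both libraries gave the same order, and the exact binomial test against an equal split gave an adjusted p-value of 1.46e-15 in replicate 1 and 4.18e-11 in replicate 2. The difference in this split between the libraries was not called (adjusted p-value 0.625 by Fisher's exact test). Only 162 counts lie behind these shares, against 224088 of miR-26a-5p, so they describe under 0.1% of the miR-26a counts. A 3p share equals the share of a locus in the hairpins made only if both hairpins keep their passenger to the same extent. That was not tested for Mir26a-1 and Mir26a-2, and between miR-26a and miR-26b the extent differed 24.8-fold and 20.2-fold, or 12.4-fold and 10.1-fold with miR-26a-5p halved.

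The same measure was taken for the other miRNAs that have a common name for a mature strand from 2 loci and numbered names for the other strand. The table lists 27 of these, and 20 had at least 20 counts of numbered strands. In 16 of the 20, a mean of at least 80% of the numbered counts came from 1 locus, and the higher locus was the same in both libraries in 17. A one-sided split was thus common, and miR-26a ranked 15 of 20 by the mean share of its higher locus. In let-7a, miR-7a, miR-19b, miR-92a, miR-128 and miR-219a the lower locus had 0 counts in both libraries, which allows up to 3 counts in each. Splits that were closer to even were seen for miR-16 (60.8% and 56.0% miR-16-1-3p) and let-7f (47.3% and 56.7% let-7f-2-3p). For miR-24, 98.5% and 99.1% of the numbered counts were miR-24-2-5p, and for miR-181a 99.96% and 99.86% were miR-181a-1-3p. The splits of let-7a and let-7c cannot be assigned, since let-7a-1-3p and let-7c-2-3p hold identical counts (1378 and 1092). With both left out, a choice made after the data were seen, the count was 14 of 18 and miR-26a ranked 13.

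The mean share of the higher locus ranged from 95.6% for miR-30c to 98.0% for miR-125b among 5 further miRNAs, with miR-181b, miR-3074 and miR-129 in between. The locus with more counts in let-7f, miR-29b and miR-138 differed between the libraries. In miR-26a the numbered strands were rare beside the common one. miR-26a-5p exceeded both 3p names together 1109-fold and 1726-fold, a mean that ranked 2 of the 20, after miR-103.

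**Figure D4:**
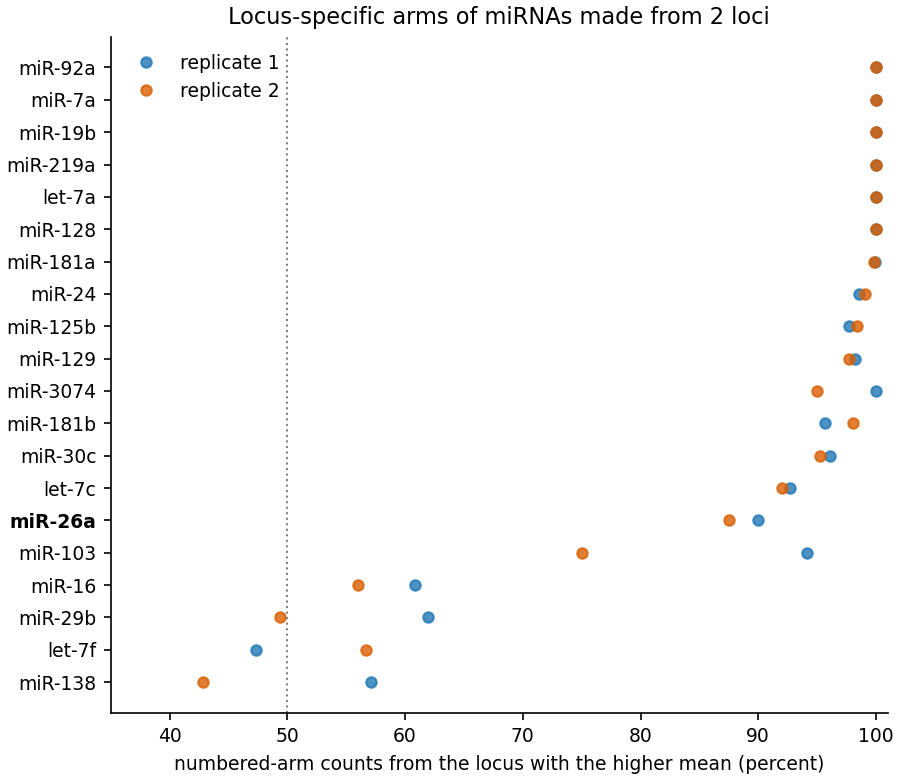
Percent of the numbered-arm counts that came from the locus with the higher mean, in replicates 1 and 2, for the 20 miRNAs with a common strand from 2 loci and at least 20 numbered counts. The dotted line marks an equal split of 50%. miR-26a, in bold, lies at 90% and 87.5%, below the 14 miRNAs with a mean of at least 90% and above the 4 below 80%.

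The family of miR-103 and miR-107 was chosen for its similar layout. miR-103-3p comes from 2 loci, in introns of Pank3 and Pank2, and the related miR-107-3p comes from an intron of Pank1. These are paralogous pantothenate kinase genes, which act in coenzyme A synthesis, and each of the 3 introns lies between exons 5 and 6 of 124 and 126 bases. miR-103-3p had 26442 and 32135 counts and miR-107-3p had 4005 and 4761, so the name shared by 2 loci held 86.8% and 87.1% of the guides. Passengers were few. miR-103-2-5p had 16 and 9 counts, miR-103-1-5p had 1 and 3, and miR-107-5p had 9 and 10. Per guide, the passenger of miR-107 was 3.50-fold more frequent than that of miR-103 in replicate 1 (exact 95% interval 1.37 to 8.30) and 5.62-fold in replicate 2 (2.18 to 14.2). Since miR-103-3p also matches 2 hairpins, its count was halved as well, after the data were seen, which gave 1.75-fold (0.686 to 4.15) and 2.81-fold (1.09 to 7.11). Both folds stayed above 1, and the interval of replicate 1 then included 1.

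The libraries were then compared with each other, since both arms of a hairpin come from the same cut. By Fisher's exact test of replicate 2 against replicate 1 over the 588 names, with Benjamini-Hochberg adjustment at 0.05, 3 of the 5 members were called, where 44.2% of all names were called. The test compares these libraries and covers counting error only, and the libraries differed far beyond counting error, with a chi-square statistic of 292 per degree of freedom over the 588 names. miR-26a-5p and miR-26b-5p were higher in replicate 2, with log2 ratios of 0.17 and 0.06 (adjusted p-values 1.08e-172 and 1.11e-06 by the exact test), and 13.8% of all names were called higher. miR-26b-3p was lower, with a log2 ratio of -0.87 (adjusted p-value 6.77e-19 by the exact test), and 30.4% of all names were called lower. The log2 ratio was -0.50 for miR-26a-2-3p and -0.14 for miR-26a-1-3p, and neither was called (adjusted p-values 0.0789 and 1 by the exact test), while miR-26a-1-3p was at 0 with DESeq2 size factors. The median of all 588 names was -0.16 with library totals and -0.03 with TMM scaling, and the names called split into 81 higher and 179 lower with totals, 122 and 137 with TMM, and 124 and 127 with DESeq2 size factors. The DESeq2 size factors were 1 for both libraries, so values under them compare raw counts without scaling. Relative to the median of all names, the guides and miR-26b-3p kept the directions given, whereas miR-26a-1-3p lay at the median. With library totals, of the 57 names with a mean count of at least 10000, 25 had a larger log2 ratio in size than miR-26a-5p and 45 a larger one than miR-26b-5p. These counts moved with the scaling, which was looked at after the data were seen. For miR-26a-5p the log2 ratio was 0.30 with TMM and 0.32 with DESeq2 size factors, and 17 and 16 of the 57 were larger in size. For miR-26b-5p it was 0.19 and 0.21, and 29 and 27 were larger.

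The 3p strand thus held a smaller share of its hairpin in replicate 2. For miR-26a the share was 0.0901% in replicate 1 and 0.0579% in replicate 2, and for miR-26b it was 2.19% and 1.16%, with adjusted p-values of 0.00922 and 1.79e-21 in Fisher's exact test. The split of the 3p counts, with miR-26b-3p at 86.6% in replicate 1 and 83.1% in replicate 2, was not called (adjusted p-value 0.145 by the exact test). That of the 5p counts, with miR-26a-5p at 79.3% and 80.5%, was called (adjusted p-value 5.35e-15 by the exact test). The 3p split differed by more percentage points than the 5p split, but on far fewer counts, and its difference was not resolved from counting error. Lower minor arms in replicate 2 were not restricted to this family. Over the 102 other hairpin names with at least 100 counts of the minor arm, the median log2 ratio was -0.06 for major arms and -0.26 for minor arms, and in 61 of them the minor arm was lower relative to the major arm. The difference between the arms was -0.64 for miR-26a and -0.93 for miR-26b, against a median of -0.11 and an SD of 0.47 over the other 102. In the list of 104 with both included, 17 names had a lower difference than miR-26a and 4 a lower one than miR-26b.

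**Figure D5:**
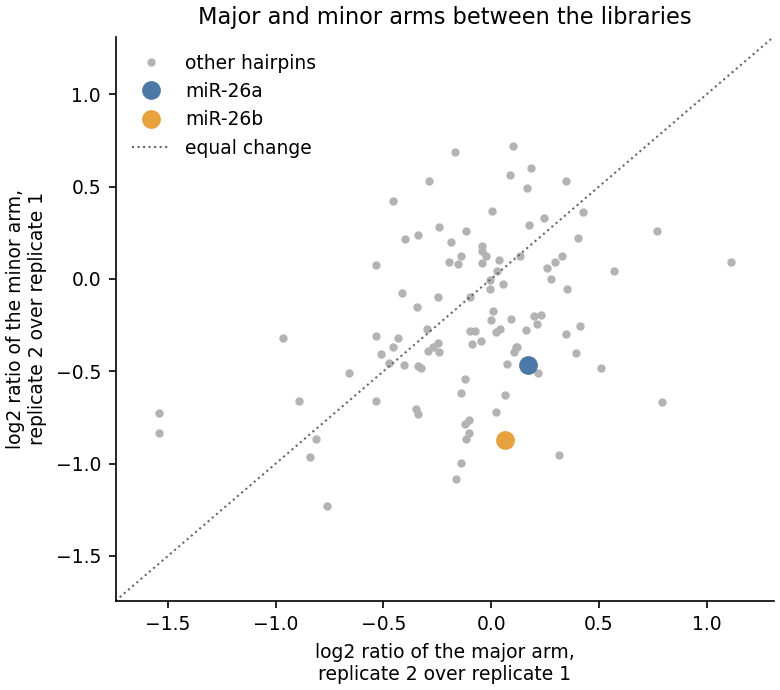
Log2 ratio of replicate 2 over replicate 1, with library totals, for the major arm (horizontal) and the minor arm (vertical) of the 104 hairpin names with at least 100 minor-arm counts. The dotted line marks an equal change of both arms. miR-26a (0.17 and -0.46) and miR-26b (0.06 and -0.87) both lie below the line.

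In the order of all names by mean share, the guides had close neighbors. miR-26a-5p lay between miR-30e-5p (1.46% ± 0.0963, SD, n = 2) and miR-378a-3p (1.34% ± 0.0790, SD, n = 2). It was lower than miR-30e-5p in replicate 1 (1.36% against 1.39%) and higher in replicate 2 (1.53% against 1.53%, with 124244 against 123486 counts). miR-26a-5p and miR-30e-5p were thus not separated beyond their spread. Within each library miR-26a-5p was above miR-378a-3p (1.36% against 1.28% and 1.53% against 1.39%). Their ranges overlapped, so miR-26a-5p was not separated from miR-378a-3p beyond the spread either. The next names were miR-16-5p above (1.59% ± 0.0501, SD, n = 2) and miR-99b-5p below (1.13% ± 0.416, SD, n = 2). miR-26b-5p lay among miR-103-3p (0.379%), miR-24-3p (0.374%), miR-23b-3p (0.350%) and miR-301a-3p (0.348%), and its rank was 37 in replicate 1 and 33 in replicate 2. The nearness in level is over 2 libraries and describes no shared pattern.

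When names were summed by seed, the 5p seed of miR-26 ranked 11 among the seeds of matched names in both libraries, with 1.72% of the counts in replicate 1 and 1.91% in replicate 2. Sequences were matched for 1623 of the 1915 names, which left out 5.80% and 6.58% of the counts, miR-30d-5p among them. By mean share, the 5 leading seeds of matched names were those of miR-21a-5p (26.8%), miR-22-3p (17.2%), miR-27b-3p (8.17%), let-7 (6.52%) and miR-146a-5p (4.54%). The last of these differed between the libraries, at 2.90% and rank 7 in replicate 1 and 6.19% and rank 5 in replicate 2. The order also depends on which names were matched. The 5 miR-30 5p names, of which miR-30d-5p and miR-30b-5p had no match, held 4.86% and 5.86% when summed by name, above the miR-146a-5p seed in replicate 1 and below it in replicate 2. The rank of the miR-26 seed was also 11 with these names added to the miR-30 seed, an alternative chosen after the data were seen.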

How the data were processed

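Small RNA libraries of BMDMs were prepared by the authors with the Illumina small RNA kit after rRNA depletion. Bowtie 0.12.7 was then used to align the trimmed reads with the mouse hairpins of miRBase. The authors deposited raw counts per mature name, with replicates apart. The miRBase release, the mismatches allowed and the treatment of reads with several matches are not given in the sources used here and can move counts between miR-26a and miR-26b. Ligation and PCR favor some sequences, so shares of counts are not shares of molecules, and intervals cover counting error only. The submitters' processing notes name DESeq2, with no version.

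From these counts, percent and CPM of the library total were computed (Python 3.11.15, scipy 1.17.1). With a single group, no quasi-likelihood test was made. Shares have exact Clopper-Pearson intervals. All tests were two-sided. Pairs of members were compared by exact binomial tests (8) and splits between the libraries by Fisher's exact test (5), as was the 3p per 5p ratio of both hairpin names in each library (2), each set with Benjamini-Hochberg adjustment. Fisher's exact test per name covered all names with at least 10 counts summed, with log2 ratios computed at a pseudocount of 0.5. It was tested on data simulated with counting error only, which lack the spread between these libraries. TMM (edgeR 4.0.16) and DESeq2 1.42.0 (R 4.3.3) gave alternative scalings, and the DESeq2 size factors were 1 for both libraries. Other alternatives were pooled reads, each library alone, thinning to equal totals and other count minimums. Halving miR-26a-5p or miR-103-3p, leaving out let-7a and let-7c, adding miR-30 names to their seed, and other scalings for the abundant names were added after the data were seen. So were the comparison of 3p per 5p between miR-26b and miR-26a, that of passenger per guide between miR-107 and miR-103, the counts among abundant names, the shift of minor arms between the libraries and the first bases. Sequences and annotation came from RefSeq and GENCODE, both of GRCm38.

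The members and lists were chosen with earlier results of these data known. Named miRNAs were the members, names with a member's seed, the 2 neighbors by mean share on either side of each guide, the miRNAs with numbered arms from 2 loci, the family of miR-103 and miR-107, the 5 leading seed families and the cell type markers. Outside that rule, the miR-30 5p names and miR-199b-3p were named after their values were seen.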

Additional observations from a re-analysis of the deposited data

How the results depend on the processing

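miR-26a-5p exceeded miR-26b-5p, and miR-26a-2-3p exceeded miR-26a-1-3p, with pooled reads, with each library alone and after thinning to equal totals, as did miR-26b-3p over the 3p names of miR-26a. The family's share of 1.82% became 2.49% when miR-21a-5p was left out of the total, by construction, and moved by less than 1 SD with TMM, with DESeq2 size factors and with names under 10 counts in either library left out. Scaling cannot move a split within a library. Halving miR-26a-5p would also lower its library share and rank, its place among hairpin names, the family's share and the seed rank. These were not recomputed. With miR-26a-5p halved, an alternative added after the data were seen, the 5p share of miR-26a was 99.85%, the share of miR-26a-5p among 5p counts 66.5%, and the mean excess of 3p per 5p in miR-26b over miR-26a 11.3-fold in place of 22.5-fold. Among hairpin names, miR-26a was more one-sided than 82.1% with a minimum of 10 counts and than 88.5% to 89.3% with 1 library left out, against 90.5%. miR-26b was at 61.5% with a minimum of 10, 52.3% with a minimum of 1000 and 52.7% to 58.2% with 1 library left out, against 57.3%. The cause was not tested. Of the values of the main results under alternatives, 46 stayed within the replicate spread, on the same side of the test or, for counts of names, within 1.5 times, and 9 are those given here. Depth limits miR-26a-1-3p most, with 9 counts in each library.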
